A study of Mus musculus with 8 samples.

Results

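The mitosis genes described here are 44 mouse genes of mitotic entry, spindle, kinetochore and cytokinesis, listed by name for these functions by a rule that uses no measured value. The list was drawn up with earlier results of these data known. Of the 44, 41 were measured, among 12393 genes in all. RNA of intestinal epithelial cells was hybridised to 8 Affymetrix arrays, 2 for each of 4 genotypes. Wild type mice (WT) were compared with IkkαAA/AA mice (IKKa-AA), with β-catc.a. mice (bCATca) and with β-catc.a./IkkαAA/AA mice, which carry both changes and are called double mutants. The series asks what the kinase IKKα contributes to the crypt expansion that follows stabilisation of β-catenin. The AA allele is a knock-in that replaces the activating serines of IKKα with alanines and is carried by every cell of the animal. Stabilised β-catenin is restricted to the intestinal epithelium and switched on by tamoxifen. The promoter that drives the recombinase and the age of the mice are not given in the sources used here. All 4 groups had the same mixed genetic background (C57BL/6 x 129Sv x FVB). Every group received tamoxifen by gavage for 5 days, its cells were isolated on day 15 counted from the first gavage, and each labelling started from 200 ng RNA. Nothing in the labels says that the 2 arrays of a group came from separate animals, so p-values measure only the spread between these samples. The WT arrays differed in sex-linked transcripts and so were not repeats of 1 animal, whereas in the other groups the spread may be technical.

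Mitosis separates the copied chromosomes into daughter cells. Cyclin-dependent kinase 1 and its cyclins start it, Polo and Aurora kinases build the spindle, the checkpoint holds anaphase until every kinetochore is attached, and the anaphase-promoting complex then releases the sister chromatids before the cell itself is divided. In the intestine, Wnt signalling through β-catenin keeps the transit-amplifying cells of the crypt dividing, whereas the enterocytes of the villus have left the cycle. The RNA of most of these genes is made late in the cycle and is low in resting cells, so in a bulk sample fewer dividing cells and less RNA per dividing cell cannot be told apart.

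The cells carried the markers of their labelled type. All 11 epithelial markers on a list of 11 (Epcam, Vil1, Krt20 and others) were bright, with 8-array means from 8.24 to 13.15 on the log2 scale, and their summed intensity lay between 37874 and 42873 on every array. Levels below are log2 intensities of the brightest probe set of a gene, and differences are differences of log2 group means. The 13 stromal and endothelial markers summed to no more than 514 on any array, whereas T cell and B cell markers varied strongly and are given where they move with the mitosis genes. The 13 myeloid markers summed to between 3425 and 7325, with list medians of -0.07 to 0.08 relative to the WT mean. Single members of that list, such as Ptprc (5.86 to 9.39) and Tyrobp (5.28 to 8.20), also varied strongly. WT replicate 1 alone had a high level of the X-inactivation transcript Xist (9.18, against 3.56 to 4.03 elsewhere) and a low level of the Y-linked gene Uty (2.56, against 4.78 to 5.55), so the WT pair, and no other pair, differed in these genes.

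Most mitosis genes were high on the same arrays and low on the same arrays. Relative to the WT mean of each gene, the median over the 41 genes was 0.17 and -0.17 on the WT arrays, 0.38 and 0.70 on the bCATca arrays and 0.43 and 0.31 on the double mutant arrays. The IKKa-AA arrays differed most from each other, with medians of 0.71 on replicate 1 and -0.03 on replicate 2. Among the 41 genes, the highest array was IKKa-AA replicate 1 for 22, bCATca replicate 2 for 15 and a double mutant array for 4. The lowest array was WT replicate 2 for 27, IKKa-AA replicate 2 for 10 and WT replicate 1 for 2. By group mean, bCATca was highest for 30 genes and WT was lowest for 40.

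**Figure D1:**
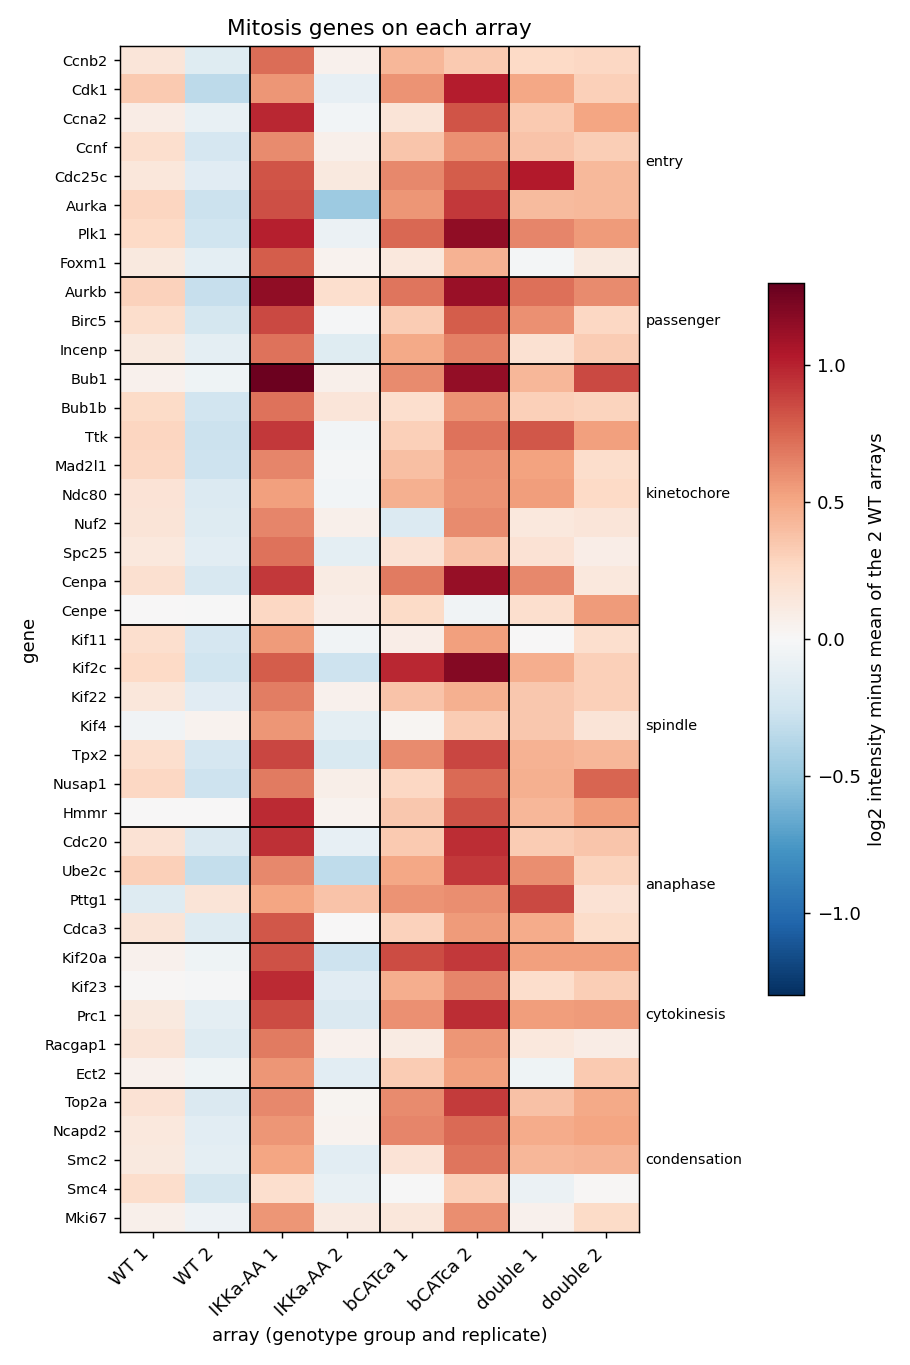
Log2 intensity of each of the 41 mitosis genes minus its WT mean (colour) on each of the 8 arrays (columns), with genes (rows) ordered by role. IKKa-AA replicate 1, both bCATca arrays and both double mutant arrays stand above both WT arrays over most rows (40, 35, 40, 34 and 32 of 41), and IKKa-AA replicate 2 does so in 5.

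**Figure D2:**
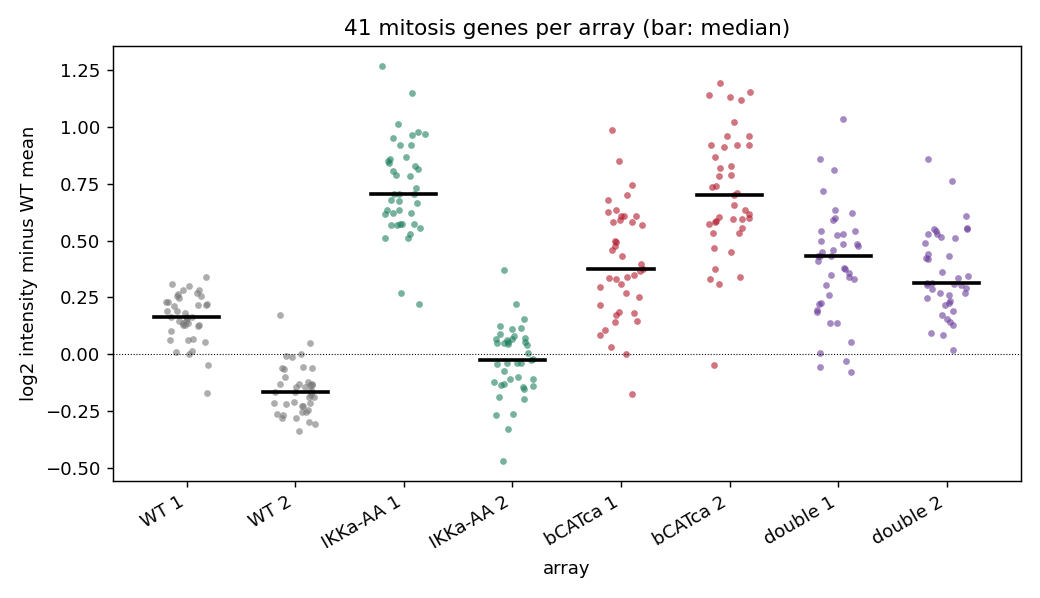
Each point is 1 of the 41 mitosis genes on 1 array, as log2 intensity minus that gene's WT mean, and each bar is the median of an array. The medians run from -0.17 on WT replicate 2 to 0.71 on IKKa-AA replicate 1.

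The first comparison asks what stabilised β-catenin does to the mitosis genes. All 41 had a higher mean in bCATca than in WT, by 0.10 to 1.09 with a median of 0.52, whereas over all 12393 genes the median difference was 0.01 and 51.0% were higher. Both bCATca arrays were above both WT arrays for 34 of 41 genes (82.9%), as they were for 33.5% of all genes, and below both for 0 of 41, against 29.7% of all genes. In a limma fit of all 8 arrays, 0 of 41 passed at an adjusted p under 0.05 over all genes, while 5.74% of all genes passed as higher and 3.55% as lower. At an unadjusted p under 0.05 there were 14 of 41 (34.1%), close to the 29.4% of all genes. The smallest adjusted p was 0.0621, for Ncapd2. The outcome of the test turned on the 2 IKKa-AA arrays, which enter this comparison only through the shared estimate of the spread. With the WT and bCATca arrays fitted alone, 9 mitosis genes rose (of all genes, 7.05% did), and with either IKKa-AA array left out 13 rose (of all genes, 9.14% did), 8 of which were among the 9. The same genes had to rise whichever IKKa-AA array was left out, because a lone array adds nothing to the estimate of the spread.

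Some promoter letters that the list was not chosen on were more frequent before mitosis genes than before genes on the array. RefSeq promoter windows (build GRCm38.p6) were matched for 33 of the 41 genes, in 35 windows of the 250 bases before a gene start. The cell cycle genes homology region (CHR, TTTGAA, read on both strands, so also as TTCAAA) is bound by the DREAM and FOXM1-containing complexes, and the CCAAT box (CCAAT, also read as ATTGG) by NF-Y. CHR letters stood in 15 windows (42.9%), against 11.5% of the windows of genes on the array, and CCAAT letters in 28 (80.0%), against 34.7%. Both stood in 14 windows of 35, against 3.99%, and in no mitosis gene window did the motifs share a base. A match is only a description of these letters. The 150 bases before the start are shown for 4 genes with both motifs (Cdk1, chr10:69352913-69353062, minus strand; Cdc20, chr4:118437344-118437493, minus strand; Ube2c, chr2:164769779-164769928, plus strand; Ncapd2, chr6:125191587-125191736, minus strand) and for 2 without that pair, Kif2c (chr4:117178773-117178922, minus strand) and Aurka (chr2:172370571-172370720, minus strand). All are written 5′ to 3′ on the strand of the gene, with the motif letters in capitals.
Cdk1: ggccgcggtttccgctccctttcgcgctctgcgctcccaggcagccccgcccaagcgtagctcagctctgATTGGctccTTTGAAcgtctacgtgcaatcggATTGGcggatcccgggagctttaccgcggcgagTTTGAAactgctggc
Cdc20: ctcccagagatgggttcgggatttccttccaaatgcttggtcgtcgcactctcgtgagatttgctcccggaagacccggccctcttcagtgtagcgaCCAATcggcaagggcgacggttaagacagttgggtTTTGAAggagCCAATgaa
Ube2c: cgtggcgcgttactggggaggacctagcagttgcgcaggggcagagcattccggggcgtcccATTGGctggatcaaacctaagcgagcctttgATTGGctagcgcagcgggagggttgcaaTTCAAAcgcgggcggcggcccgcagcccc
Ncapd2: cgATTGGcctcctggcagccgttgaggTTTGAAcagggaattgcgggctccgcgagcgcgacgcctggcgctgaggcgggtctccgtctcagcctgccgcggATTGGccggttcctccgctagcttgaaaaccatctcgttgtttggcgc
Kif2c: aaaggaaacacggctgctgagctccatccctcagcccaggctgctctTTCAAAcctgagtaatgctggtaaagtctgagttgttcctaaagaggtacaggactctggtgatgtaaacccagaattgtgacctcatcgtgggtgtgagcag
Aurka: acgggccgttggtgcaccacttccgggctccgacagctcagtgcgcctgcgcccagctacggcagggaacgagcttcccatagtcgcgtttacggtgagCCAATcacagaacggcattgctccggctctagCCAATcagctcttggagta
In Cdk1 the CHR letters end 10 bases before the start and the nearest CCAAT letters 44 bases before it, in Ube2c these distances are 24 and 53, and in Ncapd2 118 and 44. In Cdc20 CHR is at 13 and the nearest CCAAT at 4. Thus in Ncapd2 and Cdc20 the nearest CCAAT letters lie closer to the start than the CHR letters, unlike in Cdk1 and Ube2c. Ncapd2 and Cdc20 also have CCAAT letters farther from the start than their CHR letters. Kif2c has CHR letters 98 bases before the start and no CCAAT letters in the window, and Aurka has CCAAT letters and no CHR. All 41 genes had a higher mean in bCATca than in WT, including Birc5 and Pttg1, whose windows hold neither motif.

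Among the kinases and cyclins of mitotic entry, where 8 of 9 listed genes were measured, the median difference between bCATca and WT was 0.60. Cdk1, the kinase that drives entry into mitosis, read 8.80 and 8.12 for WT, 9.03 and 8.35 for IKKa-AA, 9.04 and 9.48 for bCATca, then 8.96 and 8.77 for double mutants. Its bCATca arrays were the highest of the 8, and its difference from WT was 0.80 (SE 0.29, adjusted p = 0.113 with limma). Plk1, the Polo kinase of spindle assembly and mitotic exit, read 7.95 and 7.44 for WT, 8.71 and 7.62 for IKKa-AA, 8.44 and 8.85 for bCATca, then 8.33 and 8.25 for double mutants. Its bCATca mean was 1.94-fold that of WT (log2 difference 0.95, SE 0.34, adjusted p = 0.104). With limma on the WT and bCATca arrays alone its adjusted p was 0.0424. Cdc25c, the phosphatase that activates Cdk1, read 4.73 and 4.44 for WT, 5.40 and 4.71 for IKKa-AA, 5.21 and 5.37 for bCATca, then 5.62 and 5.01 for double mutants. Here both double mutant arrays were also above both WT arrays, and the highest of all 8 was double mutant replicate 1. Foxm1, the transcription factor that drives many of the late cell cycle genes, had the smallest bCATca to WT difference of this role (0.29, SE 0.24, adjusted p = 0.455). It read 5.73 and 5.47 for WT, 6.39 and 5.65 for IKKa-AA, 5.74 and 6.05 for bCATca, then 5.57 and 5.73 for double mutants, so its highest array was IKKa-AA replicate 1 and all others lay within 5.47 to 6.05. Of its 4 probe sets, 3 were higher in bCATca than in WT, over a range of -0.23 to 0.29. Ccnb2 and Ccna2, which encode cyclins B2 and A2, Ccnf, which encodes cyclin F, and Aurka, the Aurora kinase of the spindle poles, differed by 0.38 to 0.74 between bCATca and WT, with adjusted p-values from 0.183 to 0.341. Ccnb1 was not analysed here.

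The chromosomal passenger complex corrects faulty kinetochore attachments and later guides cytokinesis, and 3 of its 4 listed subunits were measured. Aurkb, its kinase, read 7.06 and 6.46 for WT, 7.91 and 6.98 for IKKa-AA, 7.46 and 7.88 for bCATca, then 7.48 and 7.37 for double mutants. WT replicate 2 was the lowest, and every bCATca and double mutant array was above both WT arrays. Its bCATca to WT difference was 0.91 (SE 0.32, adjusted p = 0.101), and it had the smallest p of the 41 genes in the comparison of IKKa-AA with WT. Birc5, the survivin subunit, read 8.85 and 8.39 for WT, 9.48 and 8.60 for IKKa-AA, 8.95 and 9.41 for bCATca, then 9.21 and 8.89 for double mutants. Its highest array was again IKKa-AA replicate 1, and its bCATca to WT difference was 0.56 (SE 0.31, adjusted p = 0.255). Incenp, the scaffold of the complex, was 0.58 higher in bCATca (adjusted p = 0.174). Cdca8 was not analysed here.

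Of the kinetochore and checkpoint genes, all 9 were measured, with a median bCATca to WT difference of 0.50. Cenpa, the histone H3 variant that marks the centromere, read 7.52 and 7.10 for WT, 8.23 and 7.42 for IKKa-AA, 7.99 and 8.44 for bCATca, then 7.93 and 7.45 for double mutants. Both bCATca arrays were above both WT arrays by a difference of means of 0.91 (SE 0.30, adjusted p = 0.0927), whereas double mutant replicate 2 lay between the WT arrays. Ttk, the checkpoint kinase Mps1, read 6.38 and 5.82 for WT, 7.02 and 6.06 for IKKa-AA, 6.41 and 6.81 for bCATca, then 6.91 and 6.63 for double mutants, where its mean was 0.16 above bCATca. Nuf2, a subunit of the microtubule-binding Ndc80 complex, read 6.33 and 6.00 for WT, 6.80 and 6.23 for IKKa-AA, 5.99 and 6.78 for bCATca, then 6.30 and 6.32 for double mutants. For Nuf2 the 2 bCATca arrays lay 0.78 apart, on either side of both WT arrays, and no group stood apart. Cenpe, the kinetochore motor, was dim (percentile 8.95 of all genes by mean level) and read 2.75 and 2.73 for WT, 3.01 and 2.83 for IKKa-AA, 2.99 and 2.69 for bCATca, then 2.96 and 3.29 for double mutants. Bub1, a checkpoint kinase, read 6.78 and 6.66 for WT, 7.99 and 6.79 for IKKa-AA, 7.33 and 7.86 for bCATca, then 7.15 and 7.58 for double mutants. Every bCATca and double mutant array was above WT for Bub1, and IKKa-AA replicate 1 was above all of them. The checkpoint proteins Bub1b and Mad2l1 and the Ndc80 complex subunits Ndc80 and Spc25 differed by 0.28 to 0.52 between bCATca and WT.

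Kif2c, a kinesin that takes microtubules apart at the kinetochore, had the largest difference of the 41 genes. It read 6.17 and 5.66 for WT, 6.70 and 5.65 for IKKa-AA, 6.90 and 7.11 for bCATca, then 6.39 and 6.22 for double mutants. Its 2 highest values were those of the bCATca arrays. The bCATca mean was 2.13-fold that of WT (log2 difference 1.09, SE 0.32, adjusted p = 0.0674). This is the value of the brightest of 4 Kif2c probe sets. Of the 4, 2 were higher and 2 lower in bCATca, over a range of -0.42 to 1.09. Kif4, a chromosome-bound kinesin, read 5.96 and 6.06 for WT, 6.58 and 5.88 for IKKa-AA, 6.04 and 6.34 for bCATca, then 6.36 and 6.18 for double mutants. Nusap1, which bundles spindle microtubules, read 8.03 and 7.49 for WT, 8.44 and 7.84 for IKKa-AA, 8.03 and 8.50 for bCATca, then 8.22 and 8.52 for double mutants. Neither gene separated bCATca from WT clearly, with differences of 0.18 (SE 0.23) for Kif4 and 0.50 (SE 0.27) for Nusap1. The kinesins Kif11 and Kif22, the spindle assembly factor Tpx2 and the microtubule-binding protein Hmmr were 0.31 to 0.74 higher in bCATca, with adjusted p-values from 0.163 to 0.435. The median over the 7 spindle motors and microtubule factors was 0.50.

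The 4 measured genes of anaphase and sister separation had a median of 0.62, with Espl1 not analysed here. Ube2c, the ubiquitin-conjugating enzyme of the anaphase-promoting complex, read 10.11 and 9.49 for WT, 10.42 and 9.47 for IKKa-AA, 10.30 and 10.72 for bCATca, then 10.40 and 10.09 for double mutants. Pttg1, securin, which holds separase inactive, read 9.55 and 9.89 for WT, 10.23 and 10.09 for IKKa-AA, 10.30 and 10.32 for bCATca, then 10.58 and 9.91 for double mutants. Pttg1 is the gene with the smallest gap between the IKKa-AA arrays (0.14), and all of its mutant arrays were above both WT arrays. Cdc20, the activator of the anaphase-promoting complex, and Cdca3, a protein of mitotic entry listed with them, were 0.65 and 0.42 higher in bCATca than in WT. Of the 3 Cdca3 probe sets, only 1, the brightest, was higher in bCATca, over a range of -0.29 to 0.42.

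All 5 cytokinesis genes were measured, with a median of 0.55. Kif20a, a kinesin that carries the passenger complex to the spindle midzone, read 5.67 and 5.55 for WT, 6.44 and 5.34 for IKKa-AA, 6.46 and 6.53 for bCATca, then 6.14 and 6.14 for double mutants. Its replicates were close in every group but IKKa-AA, where they lay 1.10 apart. Its bCATca mean was 1.85-fold that of WT (log2 difference 0.89, SE 0.30, adjusted p = 0.095). With limma on the WT and bCATca arrays alone it had the smallest adjusted p of the 41 genes, 0.0144. Kif23, the kinesin of the centralspindlin complex at the midzone, read 6.72 and 6.69 for WT, 7.67 and 6.56 for IKKa-AA, 7.18 and 7.34 for bCATca, then 6.93 and 7.02 for double mutants. Again every group but IKKa-AA was tight, and on this probe set double mutants lay between WT and bCATca, while 2 of the 3 Kif23 probe sets were higher in double mutants than in bCATca (range -0.28 to 0.33). Prc1, which bundles midzone microtubules, Racgap1, the second centralspindlin subunit, and Ect2, which activates the furrow GTPase RhoA, were 0.34 to 0.77 higher in bCATca.

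In the group of chromosome condensation and the proliferation mark, all 5 genes were measured and the median was 0.44. Ncapd2, a condensin subunit, read 6.87 and 6.60 for WT, 7.31 and 6.78 for IKKa-AA, 7.37 and 7.47 for bCATca, then 7.22 and 7.25 for double mutants. Both β-catenin groups lay above WT without overlap, by 0.69 for bCATca (SE 0.19, adjusted p = 0.0621) and 0.50 for double mutants (SE 0.19, adjusted p = 0.250). Top2a, the topoisomerase that untangles sister chromatids, read 9.07 and 8.69 for WT, 9.50 and 8.92 for IKKa-AA, 9.49 and 9.79 for bCATca, then 9.26 and 9.37 for double mutants. Its bCATca mean was 1.69-fold that of WT (log2 difference 0.76, SE 0.23, adjusted p = 0.0701), while its dimmer probe set had a difference of -0.20. Mki67, the proliferation mark Ki-67, read 8.84 and 8.71 for WT, 9.35 and 8.89 for IKKa-AA, 8.92 and 9.38 for bCATca, then 8.83 and 9.02 for double mutants. Its bCATca to WT difference of 0.37 (SE 0.21) was below the median of the 41 genes. Smc4, the core ATPase of condensin, read 9.17 and 8.71 for WT, 9.16 and 8.84 for IKKa-AA, 8.94 and 9.25 for bCATca, then 8.86 and 8.96 for double mutants, and was the only gene of the 41 whose lowest group mean was not WT. Smc2, its partner ATPase, was 0.44 higher in bCATca. Across all roles, 20 genes had more than 1 probe set, and for bCATca against WT in 6 of these at least 1 probe set was opposite in direction to the brightest (Foxm1, Spc25, Kif2c, Nusap1, Cdca3 and Top2a).

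The next comparison asks what the IKKa-AA allele does without stabilised β-catenin. All 41 genes had a higher mean in IKKa-AA than in WT, with a median of 0.34, but the mean rested on 1 array. Replicate 1 exceeded replicate 2 in 41 of 41 genes, by 0.14 for Pttg1 to 1.31 for Aurka, and by more than 1 in 10 genes (24.4%), against 3.16% of all genes. Those 10 genes were Aurka, Bub1, Kif20a, Kif23, Plk1, Tpx2, Cdc20, Kif2c, Prc1 and Ccna2. Replicate 1 was above both WT arrays in 40 of 41 genes and above both bCATca arrays in 24. Replicate 2 lay between the WT arrays in 26 genes, below both in 10 and above both in 5. Accordingly both IKKa-AA arrays were above both WT arrays in 5 of 41 genes, against 21.2% of all genes, and below both in 0, against 24.7%. With limma, 0 of 41 passed, and of all genes 0.0% passed as higher and 0.00807% as lower. At an unadjusted p under 0.05 there were 0 of 41, against 11.7% of all genes. The smallest adjusted p was 0.440, for Aurkb (difference 0.69, SE 0.32). Without replicate 2 the median was 0.71 and 3 genes rose (of all genes, 1.03% did), namely Kif23 by 0.96, Kif20a by 0.83 and Bub1 by 1.27. In that fit the IKKa-AA group is the 1 array already seen to be high, and its spread is assumed to be that of the other groups. Without replicate 1 the median was -0.03, 22 of 41 genes turned direction and 0 of 41 passed (0.0% of all genes as higher and 0.00807% as lower).

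Other readouts differed between the same 2 IKKa-AA arrays. The summed intensity of 14 measured T cell markers of 16 listed (Cd3g, Gzma and others) was 2697 on replicate 1 and 9729 on replicate 2, against 11845 and 8549 in WT, 7367 and 5533 for bCATca, then 1324 and 964 for double mutants. The 7 measured B and plasma cell markers of 10 listed summed to 334 and 3893 in IKKa-AA, 1576 and 1991 in WT, 4020 and 3009 for bCATca, then 180 and 190 for double mutants. The 14 measured enterocyte markers of 16 listed summed to 66751 and 83971 in IKKa-AA, 84390 and 87837 in WT, 61996 and 43721 for bCATca, then 63741 and 74088 for double mutants. Thus the array with the higher mitosis gene levels had the lower lymphocyte and enterocyte marker sums within the IKKa-AA pair. The brightest member of the B and plasma cell list was Igha (7.43 and 11.70 in IKKa-AA). Of that list, Cd79b (5.94 and 5.58) and Ms4a1 (3.56 and 3.24) were higher on IKKa-AA replicate 1, and the other measured members were lower there. Cd3g, a subunit of the T cell receptor complex, read 8.50 and 7.87 for WT, 5.23 and 8.14 for IKKa-AA, 7.37 and 6.82 for bCATca, then 3.39 and 4.00 for double mutants. The double mutants had the lowest lymphocyte sums of all groups and mitosis gene medians of 0.43 and 0.31. Within the bCATca pair, replicate 2 had the higher mitosis gene median and the lower sums of all 3 lists. In the WT pair and in the double mutant pair, replicate 1 had the higher mitosis gene median and the higher T cell sum. Its B and plasma cell sum and its enterocyte sum were the lower ones of each of these pairs. Summed intensity of 10 measured crypt stem cell markers of 13 listed was 4418 and 3565 in bCATca, 1837 and 2388 in double mutants, 1621 and 1851 in IKKa-AA and 1153 and 1203 in WT. The part of these cell types in the mitosis gene values was not tested.

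**Figure D3:**
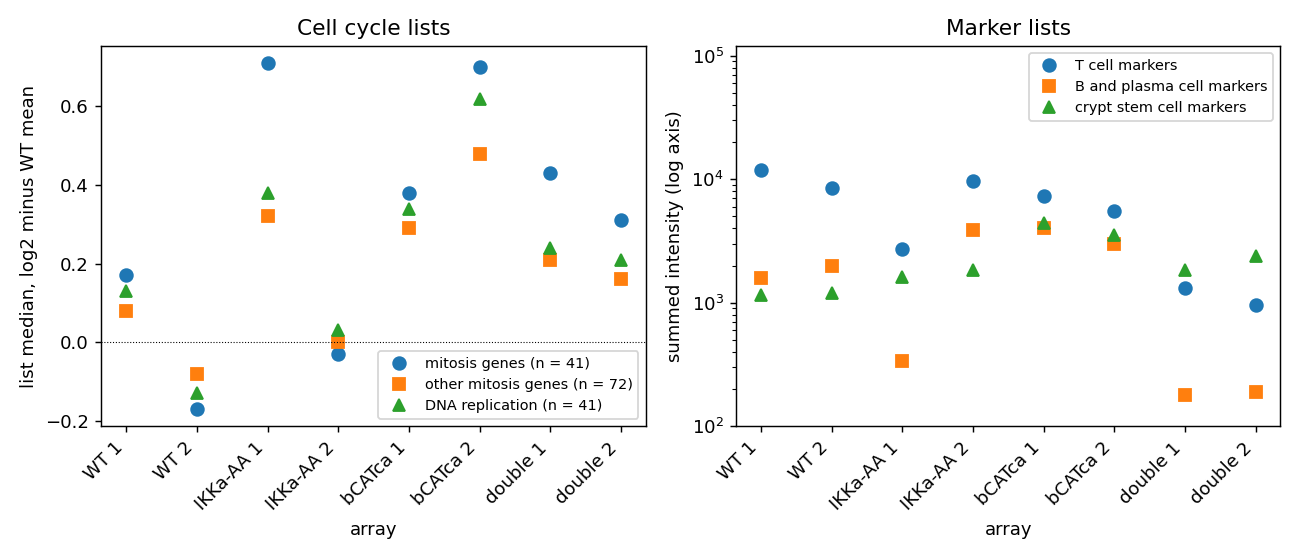
Left, the median of the mitosis genes, other mitosis genes and DNA replication genes on each array, as log2 intensity minus the WT mean. Right, summed linear intensity of T cell, B and plasma cell and crypt stem cell markers on each array (log axis), where IKKa-AA replicate 1 has a T cell sum of 2697 and replicate 2 of 9729.

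The comparison of double mutants with bCATca asks whether the IKKa-AA allele alters the mitosis genes once β-catenin is stabilised. Of the 41 genes, 36 had a lower mean in double mutants, with a median of -0.19 and a range of -0.70 to 0.29. The median was -0.39 without bCATca replicate 1 and -0.04 without bCATca replicate 2, where 12 genes turned direction. Both double mutant arrays were below both bCATca arrays in 16 genes (39.0%), against 24.2% of all genes, and above both in 0 genes, against 22.6%. With limma, 0 of 41 passed, while of all genes 0.807% passed as lower and 0.403% as higher. At an unadjusted p under 0.05 there were also 0 of 41, against 14.8% of all genes. The smallest adjusted p was 0.361, for Kif2c, whose difference was -0.70 (SE 0.32). Of the 4 Kif2c probe sets, 3 were lower in double mutants, over a range of -0.70 to 0.21. Cenpa differed by -0.52 (SE 0.30, adjusted p = 0.470) and Cdk1 by -0.40 (SE 0.29, adjusted p = 0.570). Of the 20 genes with several probe sets, 10 had at least 1 that was opposite in direction to the brightest here. On the other side, the double mutant mean was higher by 0.29 for Cenpe, 0.16 for Ttk and 0.11 for Nusap1. The median by role ran from -0.28 for cytokinesis to -0.11 for spindle motors and microtubule factors.

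Against WT, with the same 2 WT arrays as above, double mutants had a higher mean in 40 of 41 genes, with a median of 0.39, which was 0.56 without WT replicate 1 and 0.19 without WT replicate 2. Both double mutant arrays were above both WT arrays in 29 genes (70.7%), against 28.2% of all genes. None of the 41 passed with limma, where 0.984% of all genes passed as higher and 0.46% as lower, and 3 had an unadjusted p under 0.05 (16.9% of all genes). These were Cdc25c (0.73, adjusted p = 0.226), Ncapd2 (0.50) and Pttg1 (0.52). Against IKKa-AA, double mutants were higher in 21 genes and lower in 20, with a median of 0.00, and the arrays of the groups overlapped in all 41, whereas both double mutant arrays were above both IKKa-AA arrays in 19.9% of all genes and below both in 13.8%. Foxm1 had the smallest adjusted p there, 0.839, with a difference of -0.37. With limma 0 of 41 passed, against 0.0484% of all genes as higher and 0.00807% as lower, and none had an unadjusted p under 0.05 (6.93% of all genes). The median of this comparison was 0.43 without IKKa-AA replicate 1 and -0.42 without replicate 2.

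The interaction subtracts the bCATca to WT difference from the double mutant to IKKa-AA difference. It was negative in 40 of 41 genes, with a median of -0.51. With limma 0 of 41 passed, while 0.0484% of all genes passed as lower and 0.0403% as higher, and Cenpa alone had an unadjusted p under 0.05 (15.7% of all genes). Cenpa had an interaction of -1.04 (SE 0.43, adjusted p = 0.296), Kif2c of -0.96 (SE 0.45, adjusted p = 0.341) and Aurkb of -0.93 (SE 0.45, adjusted p = 0.349). Of the 4 Kif2c probe sets, 3 had a negative interaction, over a range of -0.96 to 0.27. The size of the interaction followed the IKKa-AA array used. Without replicate 1 the median was -0.14 and 0 genes passed (of all genes, 0.492% passed as lower). Without replicate 2 it was -0.87, and Kif23 (-1.24, adjusted p = 0.0369) and Kif20a (-1.19, adjusted p = 0.0397) had a negative interaction that passed, as did 0.88% of all genes, again with IKKa-AA replicate 1 as its group's lone array.

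**Figure D4:**
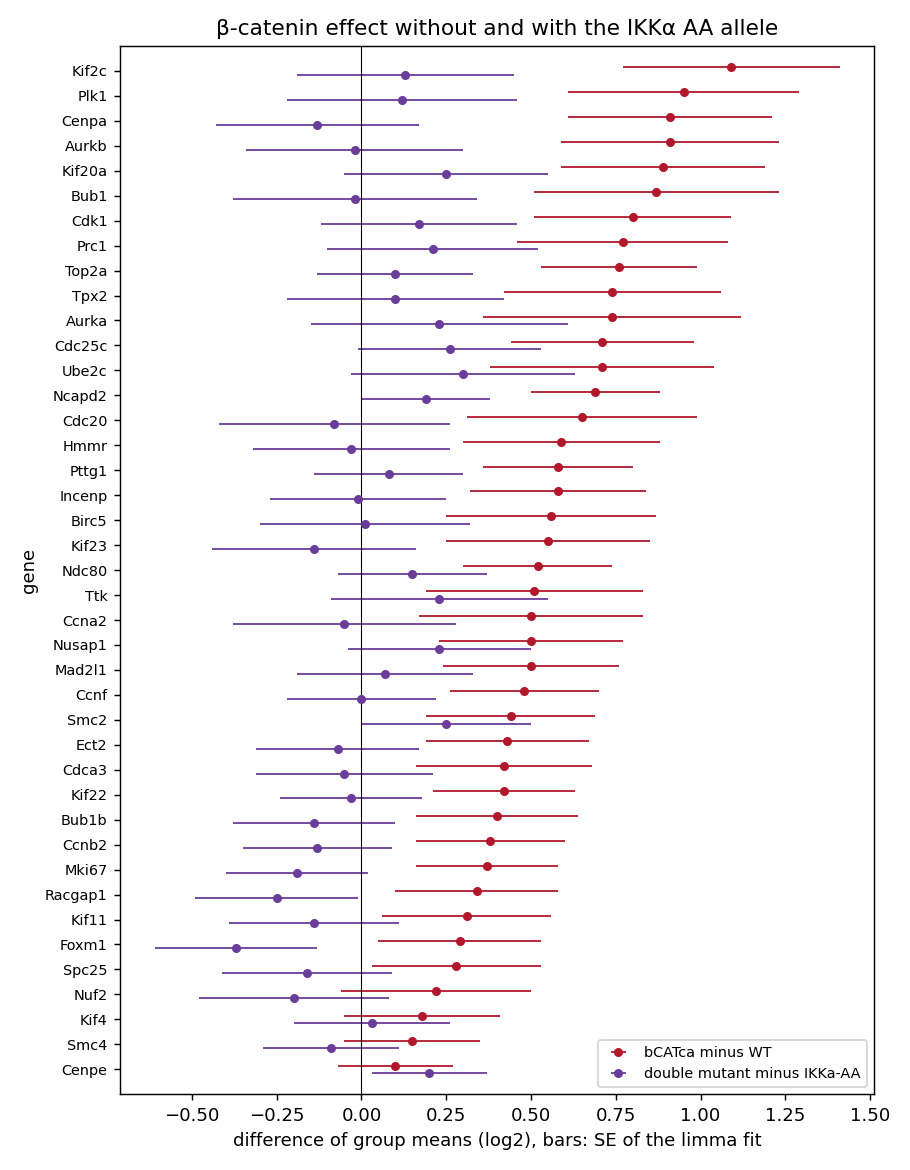
Difference of log2 group means (x axis) for each of the 41 mitosis genes (rows, ordered by the bCATca minus WT difference), with bCATca minus WT in red, double mutant minus IKKa-AA in purple and bars for the limma SE. The red points run from 0.10 for Cenpe to 1.09 for Kif2c, and the purple points scatter around a median of 0.00.

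Averaged over both IKKα states, with 4 arrays against 4, the β-catenin effect on the mitosis genes had a median of 0.29 (0.51 without IKKa-AA replicate 1 and 0.11 without replicate 2) and was positive in 40 of 41 genes. With limma 0 of 41 passed (of all genes, 2.99% passed as higher and 1.22% as lower), and 6 had an unadjusted p under 0.05 (23.5% of all genes). The largest effects were those of Kif2c (0.61, SE 0.23, adjusted p = 0.155), Kif20a (0.57, SE 0.21, adjusted p = 0.157) and Plk1 (0.54, SE 0.24, adjusted p = 0.218), and the smallest adjusted p was that of Ncapd2 (0.44, SE 0.14, adjusted p = 0.110). Foxm1, Nuf2 and Smc4 were at the other end, with -0.04, 0.01 and 0.03. Of the 4 Kif2c probe sets, 2 had a positive averaged effect, over a range of -0.28 to 0.61. Leaving out 1 array at a time gave 0.29 to 0.85 for Kif20a and 0.35 to 0.87 for Kif2c. The upper ends came without IKKa-AA replicate 1, where the group was replicate 2 alone, the lowest of the 8 arrays for both genes. The averaged IKKa-AA effect had a median of 0.07, which was -0.08 without IKKa-AA replicate 1 and 0.28 without replicate 2, and 0 of 41 passed (of all genes, 0.0% passed as higher and 0.0403% as lower), and none had an unadjusted p under 0.05 (12.2% of all genes). Its smallest adjusted p was 0.498, for Cenpe.

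Mitosis genes outside the list and genes of DNA replication, the step before mitosis, included some that passed. Of 72 measured other mitosis genes of 94 listed, 9 rose (12.5%) and 0 fell in bCATca against WT, where 5.74% of all genes rose and 3.55% fell, and their median difference was 0.37. Cdc16, a subunit of the anaphase-promoting complex, rose by 0.94 (SE 0.16, adjusted p = 0.0137) and read 7.64 and 7.62 for WT, 8.09 and 7.80 for IKKa-AA, 8.41 and 8.72 for bCATca, then 7.95 and 7.93 for double mutants. Stmn1, which destabilises microtubules, rose by 0.79 (adjusted p = 0.0199), Cenph, a constitutive centromere protein, by 0.68 (adjusted p = 0.0304) and Tubg1, the γ-tubulin that nucleates microtubules, by 0.84 (adjusted p = 0.035). The others that rose were Tacc3, Nde1, Cdc25b, Anapc4 and Cenpt. Of 41 measured DNA replication genes of 44 listed, 7 rose (17.1%) and 0 fell, against the same 5.74% and 3.55%, with a median of 0.47. They included Gins1 of the replicative helicase (1.11, adjusted p = 0.0204), the origin licensing factors Cdt1 (0.62, adjusted p = 0.0292) and Cdc6 (1.04, adjusted p = 0.0342), and Rfc1 of the clamp loader (0.71, adjusted p = 0.0333). The gap between the IKKa-AA arrays was smaller in both lists, with a median of 0.36 in each, against 0.71 in the mitosis genes. In double mutants against bCATca none of either list passed, and the DNA replication median was -0.32.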

How the data were processed

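RNA of 8 samples was measured on Affymetrix arrays. The deposited values are linear intensities per probe set, and the authors used RMA and the affy package, per the submitters' processing notes, whose versions are not given here. RMA evens out the arrays, so a shift common to most genes would not be visible. Depth has no meaning for arrays, and their number limits the precision. The log2 of each deposited intensity was taken with no pseudocount and no filter.

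Of 22690 probe sets, 20380 had 1 symbol, 691 several, 1555 none and 64 were controls. Symbols came from the platform annotation and were updated through Entrez IDs for 20351. Each of the resulting 12393 genes was represented by its brightest probe set (highest mean over the 8 arrays).

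All 8 arrays entered a single limma 3.58.1 fit in R 4.3.3 (lmFit, eBayes, group means as coefficients), with 4 residual and 4.28 prior degrees of freedom, and 8 comparisons were tested. Benjamini-Hochberg adjustment ran over all 12393 genes, with a threshold of 0.05. The limma fit was tested on simulated data. The members and all lists were chosen with earlier results of these data known. Values on every array are given for the member with the smallest p in each comparison, the 3 largest and 3 smallest differences in 3 of the comparisons (bCATca against WT, double mutants against bCATca and the averaged β-catenin effect), and Cdk1, Top2a, Mki67, Foxm1 and Birc5. Bub1, Ube2c, Pttg1, Kif23 and Cd3g were added after their values were seen, as were the IKKa-AA values of Igha, Cd79b and Ms4a1. The ranges of Ptprc and Tyrobp were also added in this way. Alternatives were quantile normalization, cyclic loess, the mean of all probe sets, an offset of 16, a low-value filter, an intensity trend, the compared groups alone, a replicate block and leaving out each array. Tables were made with Python 3.11.15, pandas 2.3.3, numpy 2.4.6 and matplotlib 3.10.9.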

Additional observations from a re-analysis of the deposited data

How the results depend on the processing

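The number of mitosis genes that passed was 0 in all 8 comparisons with quantile normalization, cyclic loess, the mean of all probe sets, an offset of 16 before log2, an intensity trend and the low-value filter, which kept 33 of the 41 genes. With only the compared groups fitted, which applies to the 5 comparisons of group pairs, it was 9 for bCATca against WT and 0 in the other 4. The bCATca to WT median stayed between 0.40 (cyclic loess) and 0.56 (low-value filter). Deviations of same-numbered replicates from their group means correlated between groups from -0.448 (IKKa-AA with bCATca) to 0.15. Pairing of the samples in another order than the replicate numbers was not tested. With a replicate block 0 genes passed and the bCATca to WT median was 0.52.

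Leaving out 1 array at a time, 0 to 13 genes passed in bCATca against WT, 0 to 3 in IKKa-AA against WT, 0 to 2 in the interaction and 0 to 14 in the averaged β-catenin effect. The counts of 13, 3, 2 and 14 came without an IKKa-AA array, and leaving out any 1 of the other 6 arrays gave 0 in each of these comparisons. In the fits behind the counts of 3, 2 and 14, 1 IKKa-AA array was its whole group, and its spread was assumed to be that of the other groups. The medians ranged from -0.03 to 0.71 for IKKa-AA against WT, -0.42 to 0.43 for double mutants against IKKa-AA and -0.87 to -0.14 for the interaction, the ends of each being without 1 of the 2 IKKa-AA arrays. They ranged from 0.38 to 0.70 for bCATca against WT, -0.39 to -0.04 for double mutants against bCATca, 0.19 to 0.56 for double mutants against WT, 0.11 to 0.51 for the averaged β-catenin effect and -0.08 to 0.28 for the averaged IKKa-AA effect.

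Over all 41 genes, leaving out 1 array turned the direction of up to 2 in bCATca against WT, 4 in double mutants against WT, 6 in the interaction, 12 in double mutants against bCATca and in the averaged β-catenin effect, 19 in double mutants against IKKa-AA, 22 in IKKa-AA against WT and 26 in the averaged IKKa-AA effect. Among the results named singly, directions turned as follows. Leaving out 1 array gave -0.05 to 0.25 for Cenpe, -0.17 to 0.61 for Nuf2 and -0.08 to 0.38 for Smc4 in bCATca against WT, and -0.13 to 0.34 for Nusap1 and -0.04 to 0.36 for Ttk in double mutants against bCATca. In the averaged β-catenin effect it gave -0.22 to 0.14 for Foxm1, -0.18 to 0.21 for Nuf2 and -0.09 to 0.14 for Smc4. The mean of all probe sets gave -0.01 for Nusap1 in double mutants against bCATca, 0.07 for Foxm1 in double mutants against IKKa-AA, and 0.08 for Foxm1 and -0.03 for Smc4 in the averaged effect. Quantile normalization gave -0.06 for Nuf2 and -0.01 for Smc4 there, and cyclic loess -0.06 and -0.03. The cause was not tested.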
